A study of Mus musculus with 28 samples.

Results

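Messenger RNA of the hippocampus was compared between 3xTg-AD and wild-type (WT) female mice that had all received navitoclax, a drug also called ABT263 that blocks proteins of the BCL-2 family and is labelled NAVI here. The libraries were chosen by their labels alone. They were the 4 libraries of 3xTg mice with NAVI and the 4 libraries of WT mice with NAVI, 8 of the 28 libraries in the series, and 16369 of the 24062 genes in the count table passed the low count filter and were tested. WT libraries are labelled BL6129, a mixed C57BL/6 and 129 background. The study also sequenced 3xTg and WT mice given dasatinib with quercetin (DQ), 3xTg mice given either of the vehicles labelled VehN and VehD, and WT mice given a vehicle labelled Veh, in 7 groups of 4 libraries. Tissue and sex were the same in all groups, and no source used here gives the dose, the schedule or the ages. The labels do not say that each library is a separate animal, so p-values measure the spread between these libraries.

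The 3xTg-AD line models both lesions of Alzheimer's disease. It carries human amyloid precursor protein and tau transgenes, each with disease mutations and driven by a neuronal Thy1 promoter cassette. Amyloid plaques draw microglia, the macrophages of the brain, into a disease-associated state: the lipid receptor TREM2 and its adaptor TYROBP signal, homeostatic genes give way, and genes of phagocytosis, lysosomes and lipid handling, such as Cst7, Clec7a, Itgax and Apoe, come on. Astrocytes around plaques raise Gfap and complement genes. Navitoclax binds BCL-2, BCL-XL and BCL-W, which hold back apoptosis, and is used to remove senescent cells, which depend on these proteins and are marked by the cell cycle inhibitors Cdkn1a and Cdkn2a and by secreted inflammatory factors. The comparison asks which genotype differences were measured in the hippocampus of mice that had received this drug.

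Depth ran from 32080861 counts in 3xTg replicate 3 to 54019519 in WT replicate 2. The hippocampal markers Prox1 (36.2 to 60.3 CPM, that is counts scaled to library size), Wfs1 (88.5 to 144 CPM) and Spink8 (14.95 to 41.65 CPM) were present in all 8 libraries. Markers of neighbouring tissue varied within both genotypes. The summed level of 17 choroid plexus markers was 3851 and 3990 CPM in 3xTg replicates 1 and 3 and 3901 CPM in WT replicate 2, against 149.8 to 339.9 CPM in the other 5 libraries. The summed level of 21 thalamus and habenula markers was 944 CPM in 3xTg replicate 1 and 441 to 569 CPM in the other 7. No member of either list passed with edgeR; at an unadjusted p under 0.05 the choroid plexus list had 0 members and the thalamus list 2, and DESeq2 called 0 and 1. Alas2, a heme enzyme of red cell precursors, was at 10.8 CPM in 3xTg replicate 2 and 0.143 to 0.917 CPM elsewhere, while the globins Hba-a1 and Hbb-bt were listed at 0 in all 8.

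The transgene loci came first as a check of the labels. App, the amyloid precursor protein gene (chromosome 16, 84949685 to 85173766 on GRCm38), was at 3234, 3486, 3565 and 3805 CPM in 3xTg replicates 1 to 4 and at 1650, 1572, 1470 and 1594 CPM in WT. The groups did not overlap. The log2 difference was 1.16 (SE 0.088, edgeR adjusted p = 2.35e-09), 2.24-fold. Thy1, the glycoprotein gene whose cassette drives the transgenes (chromosome 9, 44043384 to 44048579), was at 2084, 2365, 2461 and 2463 CPM in 3xTg and 681, 661, 632 and 731 CPM in WT, again without overlap, and differed by 1.79 on the log2 scale (SE 0.098, edgeR adjusted p = 4.98e-12). Mapt, the tau gene (chromosome 11, 104231390 to 104332090), was at 663 to 755 CPM in 3xTg and 547 to 612 CPM in WT. Its difference of 0.26 passed (edgeR adjusted p = 0.00806) but missed the threshold without WT replicate 3 (adjusted p = 0.0571) and after the GC trend described further on was removed (log2 0.17, adjusted p = 0.135). Ncstn, a gamma-secretase subunit, was higher by 0.28 (edgeR adjusted p = 0.00853). Of 21 tested genes of App processing 2, App and Ncstn, were higher (9.52%, against 3.29% of all genes) and 1 was lower (4.76%, against 2.69%). Without 3xTg replicate 2, 5 were higher. How reads of the human transgenes were counted is not given, so counts on App, Mapt and Thy1 can hold human as well as mouse transcripts.

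With navitoclax 979 genes passed between the genotypes, 5.98% of those tested. Of these 539 were higher in 3xTg (3.29%) and 440 lower (2.69%). At least 2-fold differences were rarer, with 134 genes higher (0.819% of genes) and 58 lower (0.354%), 1.17% in all. The median log2 difference of all genes was 0.00, and 50.3% of genes had a positive one. The count was uneven across leave-outs: 375 without 3xTg replicate 3, 592 without 3xTg replicate 4, 447 without WT replicate 3, 579 without WT replicate 4 and 1920 without 3xTg replicate 2. The principal component with the largest share (32.5% of the variance of 1000 genes) placed all 3xTg libraries on 1 side of 0 and all WT libraries on the other.

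**Figure D1:**
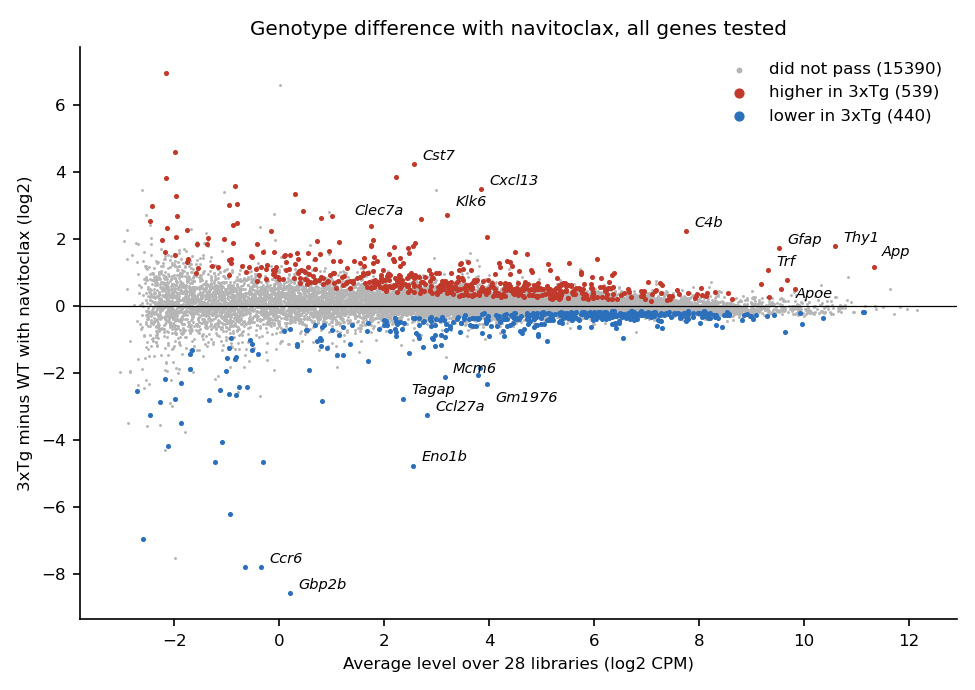
Each point is 1 of 16369 genes, with its average level over 28 libraries on the x axis (log2 CPM) and the difference of 3xTg minus WT with navitoclax on the y axis (log2). Red points are the 539 genes called higher in 3xTg and blue points the 440 called lower; App, Thy1 and Gfap stand out at high levels, Cst7 and Cxcl13 at low levels, and Ccr6 and Gbp2b lie lowest among the labelled genes.

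Microglial genes led the rises. Cst7, a cystatin that inhibits lysosomal cysteine proteases, was at 5.62, 12.3, 24.3 and 10.2 CPM in 3xTg replicates 1 to 4 and 1.03, 0.996, 0.285 and 0.428 CPM in WT. The lowest 3xTg library was above the highest WT library, and 3xTg replicate 3 stood highest. The log2 difference was 4.24 (SE 0.38, edgeR adjusted p = 4.73e-08), 18.9-fold and the largest rise among called genes with an average log2 CPM of at least 0. Clec7a, the beta-glucan receptor dectin-1, was at 8.08, 13.2, 17.3 and 6.89 CPM in 3xTg and 1.96, 2.40, 1.67 and 1.48 CPM in WT. These groups were also apart, with a difference of 2.59 (SE 0.25, edgeR adjusted p = 1.55e-07). Itgax, the integrin CD11c, was at 3.76, 5.28, 12.1 and 5.53 CPM against 1.07, 1.79, 1.06 and 1.17 CPM (log2 2.38, edgeR adjusted p = 8.34e-06). Lilrb4, an inhibitory receptor of myeloid cells, rose by 2.64 (adjusted p = 2.23e-05) and Ctse, the aspartic protease cathepsin E, by 3.86 (adjusted p = 2.50e-06).

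The promoters of Cst7 and Itgax are shown because both genes rose and both windows hold a match to GGAAGT, a form of the GGAA core that ETS factors such as the myeloid regulator PU.1 bind. Sequences are from RefSeq (GRCm38.p6), from 250 bases before to 50 bases after the annotated start, 5′ to 3′ on the strand of the gene, with matches to the motif on either strand in capitals. Cst7 lies at chr2:150570165-150570464 on the plus strand, with 1 match 62 bases before the start. Itgax lies at chr7:128129300-128129599 on the plus strand, with matches 121 and 41 bases before it, the second on the opposite strand.
Cst7: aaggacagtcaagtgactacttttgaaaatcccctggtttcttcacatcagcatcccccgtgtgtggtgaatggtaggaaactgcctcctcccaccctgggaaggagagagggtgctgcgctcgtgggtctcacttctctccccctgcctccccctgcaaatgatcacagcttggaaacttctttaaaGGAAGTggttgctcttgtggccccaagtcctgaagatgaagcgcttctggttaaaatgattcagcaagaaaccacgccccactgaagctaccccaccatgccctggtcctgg
Itgax: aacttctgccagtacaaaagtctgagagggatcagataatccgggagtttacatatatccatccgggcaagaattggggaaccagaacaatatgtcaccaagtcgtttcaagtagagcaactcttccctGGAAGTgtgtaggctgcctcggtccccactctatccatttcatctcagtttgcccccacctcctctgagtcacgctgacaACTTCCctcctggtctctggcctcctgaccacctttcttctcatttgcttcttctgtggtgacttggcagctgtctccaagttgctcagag
GGAAGT or its reverse complement was found in 23.8% of 32851 promoters of this length and in 9 of 31 disease-associated microglia genes with a promoter in the table (29.0%, against 26.5% of all genes). A match is a description of these letters only.

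Disease-associated microglia genes rose as a group. Of 39 tested members 24 were higher in 3xTg and 0 lower, against 3.29% higher over all genes, and the median log2 difference was 0.80 (all genes 0.00). In 24 members all 4 3xTg libraries lay above all 4 WT libraries, which held for 6.96% of all genes, and 0 members had all below, which held for 7.6%. Trem2 was at 10.1, 13.8, 28.1 and 17.2 CPM in 3xTg and 7.33, 7.82, 6.23 and 7.14 CPM in WT (log2 1.28, SE 0.22, edgeR adjusted p = 0.00111), so the lowest 3xTg library was close above WT and replicate 3 far above it. Tyrobp was at 28.8, 31.8, 45.1 and 32.2 CPM against 18.5, 18.2, 13.6 and 16.1 CPM (log2 1.05, adjusted p = 0.000176). Apoe, the lipid carrier that astrocytes and activated microglia make, was at 1049, 845, 1257 and 1190 CPM against 692, 643, 541 and 640 CPM, without overlap (log2 0.79, SE 0.18, edgeR adjusted p = 0.00911).

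One library carried more of this pattern than the others. 3xTg replicate 3, the library with the lowest depth, was the highest of the 4 in 22 of the 24 called members, and replicate 2 in the other 2. The mean log2 level of the list relative to all libraries was 0.88 in replicate 3, against 0.27, 0.45 and 0.25 in replicates 1, 2 and 4, and -0.65 to -0.34 in WT. Without replicate 3, 18 members were still higher. A further fit left out every library of the series whose choroid plexus score (the same mean for that list) was above 0. That kept 2 3xTg and 3 WT libraries with navitoclax. It also removed libraries of the other groups, among them all 4 of VehN, so the fit shared by all groups was smaller as well. In that fit 11 members were higher, and over all genes 102 passed. With those libraries left out, the lists described below had 4 (receptor signalling), 0 (homeostatic), 6 (lysosome), 6 (complement), 6 (astrocytes), 2 (chemokines), 1 (secretory factors), 1 (antigen presentation), 0 (cholesterol), 1 (stress response) and 0 (myelin) members higher and 0 pro-apoptotic genes lower with edgeR. The part of the choroid plexus markers in these results was not tested. In bulk tissue, more cells of a type and more RNA of these genes per cell cannot be told apart.

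**Figure D2:**
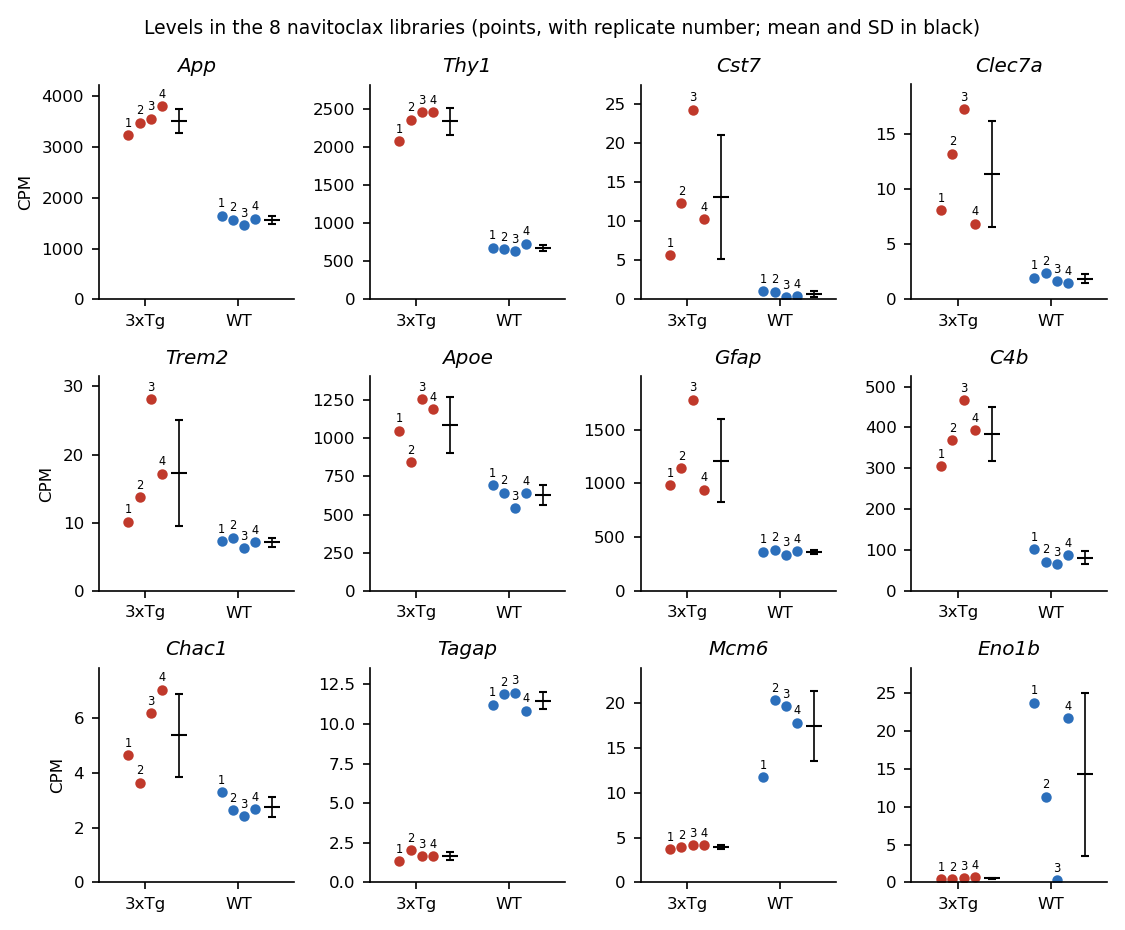
Levels in CPM of 12 genes (y axes, linear and starting at 0) in the 4 3xTg libraries (red) and 4 WT libraries (blue) with navitoclax, with the replicate number above each point and the mean and SD in black (n = 4). 3xTg replicate 3 is the highest library for Cst7, Clec7a, Trem2, Apoe, Gfap and C4b, Tagap and Mcm6 are lower in all 3xTg libraries, and WT replicate 3 lies at the 3xTg level for Eno1b.

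Some genes that microglia use at rest were higher too. Of 16 homeostatic microglia genes 6 were higher (37.5%, against 3.29% of all genes) and 0 lower, 12 had a positive difference, and the median was 0.29. Their summed level was 1736 to 2221 CPM in 3xTg and 1384 to 1584 CPM in WT. The sum weighs abundant genes most, such as Cst3 with an average log2 CPM of 9.56, and so is no even measure of homeostatic microglia. P2ry12, the purine receptor that defines these cells, was at 48.5, 47.3, 43.3 and 39.8 CPM in 3xTg and 44.7, 48.8, 46.5 and 48.3 CPM in WT, with overlapping groups. Slc2a5, a fructose transporter, rose by 1.34 (edgeR adjusted p = 0.00817), Olfml3, a secreted matrix protein, by 0.73 (adjusted p = 0.00813) and Cst3, cystatin C, by 0.51 (adjusted p = 0.00694). The count was 2 without 3xTg replicate 3, 4 without WT replicate 3 and 2 with only the 8 libraries in the fit. Cst3 missed the threshold without 3xTg replicate 3 (edgeR adjusted p = 0.0515) and with the GC trend removed (0.0555). Slc2a5 missed it with only the 8 libraries (edgeR adjusted p = 0.091).

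Receptor signalling, lysosomal and complement genes moved in the same direction. Among 25 tested genes of Trem2 and immune receptor signalling 11 were higher (44.0%, against 3.29% of all genes) and 0 lower (median 0.64). Laptm5, a lysosomal membrane protein of immune cells, was at 44.1, 46.1, 65.7 and 51.6 CPM against 29.2, 32.2, 25.8 and 30.1 CPM (log2 0.82, edgeR adjusted p = 0.000293), and Fcer1g, the Fc receptor gamma chain, rose by 0.78 (adjusted p = 0.00142). Of 35 lysosome and cathepsin genes 13 were higher (37.1%, against 3.29% of all genes) and 0 lower (median 0.22). Cd68, a glycoprotein of phagocyte lysosomes, was at 12.8, 13.9, 24.5 and 14.7 CPM against 8.03, 7.42, 5.95 and 6.38 CPM, without overlap (log2 1.24, SE 0.18, edgeR adjusted p = 0.000121). Ctss, cathepsin S, rose by 0.70 (adjusted p = 0.000669). Of 28 complement genes 9 were higher (32.1%, against 3.29% of all genes) and 0 lower (median 0.33). Those higher included the classical pathway subunits C1qb (55.8, 68.1, 101 and 72.5 CPM against 39.8, 38.6, 30.5 and 37.6 CPM, log2 1.02, edgeR adjusted p = 0.00117) and C1qc (log2 1.06, adjusted p = 0.00142). These counts leaned on the same libraries: the receptor list had 6 members higher without 3xTg replicate 3 and 7 without WT replicate 3, the lysosome list 6 without either, and the complement list 6 without 3xTg replicate 3.

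Astrocyte genes of the reactive state rose together. Of 28 tested members 13 were higher (46.4%, against 3.29% of all genes) and 0 lower, with a median of 0.93. In 13 members every 3xTg library lay above every WT library (46.4%, against 6.96% of all genes). Gfap, the intermediate filament of astrocytes, was at 984, 1142, 1779 and 941 CPM in 3xTg and 366, 383, 338 and 369 CPM in WT, higher by 1.73 on the log2 scale (SE 0.18, edgeR adjusted p = 7.61e-07). WT libraries were close together and 3xTg libraries spread widely, with replicate 3 highest. C4b, complement component C4, was at 306, 369, 467 and 394 CPM against 102, 71.9, 65.2 and 87.5 CPM (log2 2.23, SE 0.21, edgeR adjusted p = 1.42e-07), a sum that can include reads of its close copy C4a. Aspg, an asparaginase, rose by 1.97 (adjusted p = 6.75e-05), Cd14, the endotoxin co-receptor that microglia also make, by 1.73 (adjusted p = 0.00011), and Tgm1, transglutaminase 1, by 3.33 (adjusted p = 0.000133). The count was 9 of 28 without 3xTg replicate 3.

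Secreted factors followed. Of 32 tested chemokine and cytokine genes 7 were higher (21.9%, against 3.29% of all genes) and 1 lower (3.12%, against 2.69%), with a median of 0.37. Ccl3, an attractant of myeloid cells, was at 2.43, 2.65, 4.68 and 1.81 CPM against 0.786, 0.461, 0.0814 and 0.262 CPM (log2 2.85, edgeR adjusted p = 0.000137), and Ccl4, which signals through a shared receptor, rose by 3.05 (adjusted p = 7.31e-05). Cxcl13, the attractant of B cells, was at 10.4, 23.6, 58.6 and 27.7 CPM against 3.60, 0.350, 3.77 and 3.07 CPM (log2 3.48, SE 0.54, edgeR adjusted p = 0.000271). Its lowest level, in WT replicate 2, was in the WT library with high choroid plexus markers. T and B cell genes were near the floor: their 24 genes in the table summed to 7.13 to 9.54 CPM in 3xTg and 5.31 to 9.85 CPM in WT. Of 11 tested, Cd8a (6 to 15 counts per 3xTg library, 0 to 4 per WT library, edgeR adjusted p = 0.017) and Cd3g (7 to 13 and 0 to 4 counts, adjusted p = 0.04) were higher. That is 18.2% of those tested, against 3.29% of all genes. Cd8a missed the threshold without WT replicate 2 (adjusted p = 0.0516), and Cd3g without any of 6 libraries (up to 0.102, without WT replicate 4).

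Senescence markers split by kind. Of 37 tested secretory factors of senescent cells 11 were higher (29.7%, against 3.29% of all genes) and 0 lower (median 0.42). They were led by genes that activated microglia and astrocytes also make: Ccl3 and Ccl4, the elastase Mmp12 (0.434, 0.625, 2.23 and 0.501 CPM against 0.0436, 0.184, 0.143 and 0.0714 CPM, log2 3.01, edgeR adjusted p = 0.00142) and the metalloproteinase inhibitor Timp1 (1.10, 1.51, 2.94 and 1.24 CPM against 0.262, 0.258, 0.346 and 0.571 CPM, log2 2.23, adjusted p = 0.00232). None of 16 cell cycle regulators of senescence passed with edgeR or DESeq2, and 3 had an unadjusted p under 0.05 with edgeR, 1 higher and 2 lower. Cdkn1a, which encodes p21, was at 8.74, 14.2, 11.3 and 10.7 CPM in 3xTg and 13.8, 8.85, 12.1 and 8.0 CPM in WT, with overlapping groups and a difference of 0.07 (95% interval -0.38 to 0.52, edgeR adjusted p = 0.855). Cdkn2a, which encodes p16 and p19, had 1, 1, 5 and 4 counts in 3xTg and 1, 1, 0 and 2 in WT and was not kept by the filter. Its mean was 0.0739 CPM against 0.022 CPM (exact permutation test over 70 assignments, two-sided, p = 0.2). The secretory count was 7 without 3xTg replicate 3 and 7 with only the 8 libraries in the fit.

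Genes of the drug's targets differed little between genotypes. Bcl2 was at 25.7, 28.3, 25.5 and 21.4 CPM in 3xTg and 27.4, 29.1, 28.2 and 22.8 CPM in WT (log2 -0.09, 95% interval -0.29 to 0.11, edgeR adjusted p = 0.545). Bcl2l1, the gene of BCL-XL, differed by 0.14 (interval -0.05 to 0.33, adjusted p = 0.323) and Bcl2l2, the gene of BCL-W, by -0.10 (interval -0.17 to -0.02, adjusted p = 0.0946). Bcl2l2 was at 189 to 193 CPM in 3xTg and 200 to 205 CPM in WT, apart by a narrow gap, and it passed with DESeq2 (log2 -0.09, adjusted p = 0.0275) and with the GC trend removed (log2 -0.20, edgeR adjusted p = 0.0214). Of 7 tested anti-apoptotic family genes Bcl2a1b, a myeloid member with near-identical copies, was higher (2.12, 3.60, 3.73 and 1.81 CPM against 0.873, 1.38, 0.367 and 0.976 CPM, log2 1.64, edgeR adjusted p = 0.00231). That is 14.3% of the list, against 3.29% of all genes. Of 13 pro-apoptotic genes 3 were lower (23.1%, against 2.69% of all genes) and 0 higher. Bnip3, a mitochondrial protein of mitophagy, was at 58.1, 70.9, 65.2 and 63.9 CPM against 93.3, 87.9, 101 and 89.8 CPM (log2 -0.53, adjusted p = 0.00335). The call on Bnip3 held in all 8 leave-outs; the other calls of that list did not, and 1 remained without 3xTg replicate 1 or 3 or WT replicate 1, 3 or 4.

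Few interferon-stimulated genes passed, while all tested antigen presentation genes had a positive difference. Of 41 tested interferon-stimulated genes 1 was higher and 1 lower, against 3.29% and 2.69% of all genes, with a median of 0.32. Stat2, a transcription factor of that response, rose by 0.34 (edgeR adjusted p = 0.0217), a call lost without 3xTg replicate 3 or 4 or WT replicate 2 or 3 (adjusted p 0.0578 to 0.101). Removal of the GC trend also lost it (log2 0.28, edgeR adjusted p = 0.0808). Xaf1, an interferon-induced antagonist of apoptosis inhibitors, was lower, at 6.98, 7.88, 6.21 and 6.32 CPM against 21.9, 32.9, 28.7 and 15.6 CPM (log2 -1.85, adjusted p = 8.34e-06). All 22 tested MHC and antigen presentation genes had a positive difference (median 0.47), 4 passed (18.2%, against 3.29% of all genes), and 36.4% had every 3xTg library above every WT library, against 6.96% of all genes. DESeq2 called 8. Without 3xTg replicate 3 or WT replicate 3 the number was 1, and without WT replicate 1 it was 2.

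Cholesterol genes and the integrated stress response were higher in 3xTg. Cholesterol synthesis and uptake genes are driven by SREBP2, and stress response genes by ATF4 when translation is slowed. Of 26 cholesterol genes 9 were higher (34.6%, against 3.29% of all genes) and 0 lower (median 0.27). Dhcr7, a reductase of the last steps, was at 42.7, 46.1, 47.3 and 49.4 CPM against 39.2, 36.6, 33.9 and 37.1 CPM, without overlap (log2 0.34, SE 0.073, edgeR adjusted p = 0.00712). Mvk, mevalonate kinase, rose by 0.71 (adjusted p = 0.00869; 0.0513 without 3xTg replicate 3) and Lss, lanosterol synthase, by 0.48 (adjusted p = 0.00956). The count was 4 without 3xTg replicate 3, 6 without 3xTg replicate 4 and 5 without WT replicate 3. It was 0 in the smaller fit without libraries of any group with a choroid plexus score above 0.

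Of 21 tested stress response genes 6 were higher (28.6%, against 3.29% of all genes) and 0 lower (median 0.30), and 3 were higher with the GC trend removed. Chac1, a glutathione-degrading enzyme, was at 4.65, 3.64, 6.18 and 7.04 CPM against 3.30, 2.64, 2.42 and 2.67 CPM (log2 0.96, SE 0.22, edgeR adjusted p = 0.00932). The groups were apart by a small gap. Atf5, a transcription factor translated under stress, was at 18.8, 17.2, 19.2 and 19.1 CPM against 11.0, 11.4, 10.4 and 10.7 CPM (log2 0.77, adjusted p = 0.00221), and missed the threshold with the GC trend removed (log2 0.48, adjusted p = 0.0505). Slc3a2 and Slc7a5, the chains of the large neutral amino acid transporter, rose by 0.28 (adjusted p = 0.00376) and 0.42 (adjusted p = 0.004). Slc7a5 also missed it with the GC trend removed (log2 0.22, adjusted p = 0.0992). The Chac1 promoter is shown because it holds a match to TGATGNAAN, the composite element of C/EBP and ATF factors, 194 bases before the start and on the opposite strand, in capitals. It lies at chr2:119350992-119351291 on the plus strand (RefSeq, GRCm38.p6).
Chac1: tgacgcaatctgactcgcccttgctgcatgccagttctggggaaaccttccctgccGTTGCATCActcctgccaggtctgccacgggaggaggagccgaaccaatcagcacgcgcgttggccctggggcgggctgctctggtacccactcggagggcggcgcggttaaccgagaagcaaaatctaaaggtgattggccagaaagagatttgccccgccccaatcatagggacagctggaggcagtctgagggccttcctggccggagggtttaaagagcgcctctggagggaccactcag
The element was found in 3.95% of all promoters (4.5% of genes) and in 7 of 20 stress response genes (35.0%). The list was made of genes driven by ATF4, so its larger share says nothing about these libraries. Here too a match describes the letters only.

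Neuronal lists gave few calls, in both directions, and myelin genes were mostly higher. Of 21 inhibitory neuron genes 2 were lower (9.52%, against 2.69% of all genes) and 1 higher (4.76%, against 3.29%). In 7 of the 8 leave-outs 1 was lower, and without 3xTg replicate 2 the number was 3. Gad1, the enzyme that makes GABA, was at 465, 497, 397 and 471 CPM against 651, 629, 562 and 557 CPM, without overlap (log2 -0.39, SE 0.079, edgeR adjusted p = 0.00401). Of 30 postsynaptic genes 1 passed and was higher (3.33%, against 3.29% of all genes). Grin2b, an NMDA receptor subunit, was that gene, at 210, 184, 165 and 208 CPM against 130, 110, 126 and 136 CPM (log2 0.61, adjusted p = 0.0127). C1ql2, a synaptic C1q-like protein of dentate granule cells, was the 1 of 14 dentate gyrus genes that passed (log2 -0.81, adjusted p = 0.00948), with overlapping groups. That is 7.14% of the list lower, against 2.69% of all genes. With only the 8 libraries in the fit C1ql2 missed the threshold (edgeR adjusted p = 0.0572). None of 29 presynaptic genes and 28 immediate early genes passed with edgeR; 6 and 8 had an unadjusted p under 0.05, and DESeq2 called 2 and 1 lower. Of 22 myelin genes 20 had a positive difference (median 0.42), and 3 were higher (13.6%, against 3.29% of all genes) and 0 lower. The mean log2 level of the list relative to all libraries overlapped, at 0.53, 0.32, 0.42 and 0.19 in 3xTg and 0.27, 0.08, -0.44 and -0.50 in WT. The count was 2 without WT replicate 3 or 4 and 5 without WT replicate 1. With vehicle 7 were higher and with DQ 1 (5.68% and 1.68% of all genes). Klk6, a peptidase of oligodendrocytes, was at 12.6, 19.1, 34.1 and 19.1 CPM against 5.39, 4.87, 1.47 and 0.976 CPM (log2 2.73, SE 0.56, edgeR adjusted p = 0.00466), and Trf, the iron carrier transferrin, at 942, 925, 988 and 793 CPM against 596, 517, 301 and 329 CPM (log2 1.06, adjusted p = 0.00506).

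Housekeeping lists differed from each other. None of 39 ribosomal protein genes passed with edgeR, 15 had an unadjusted p under 0.05 (11 higher, 4 lower) and DESeq2 called 1 higher and 2 lower. Of 39 respiratory chain genes 5 were lower (12.8%, against 2.69% of all genes) and 0 higher. The number lower was 0 without WT replicate 3 or with only the 8 libraries in the fit, 1 without 3xTg replicate 4, 2 without WT replicate 4 and 3 without 3xTg replicate 1 or 3 or WT replicate 1. Of 24 NRF2 antioxidant genes 4 were higher (16.7%, against 3.29% of all genes) and 2 lower (8.33%, against 2.69%). Without 3xTg replicate 3 or WT replicate 3 none was higher, without WT replicate 2 or 4 the number was 1, and without 3xTg replicate 1 it was 2. Srxn1, sulfiredoxin, was at 97.4 to 105 CPM against 121 to 133 CPM (log2 -0.31, edgeR adjusted p = 0.00129) and Gsr, glutathione reductase, at 25.4 to 27.3 CPM against 34.1 to 44.3 CPM (log2 -0.58, adjusted p = 0.00402). Mt2, a metallothionein that glucocorticoids and metals induce, was at 61.0, 61.4, 81.6 and 93.3 CPM against 43.0, 37.6, 32.7 and 39.4 CPM (log2 0.96, adjusted p = 0.011).

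**Figure D3:**
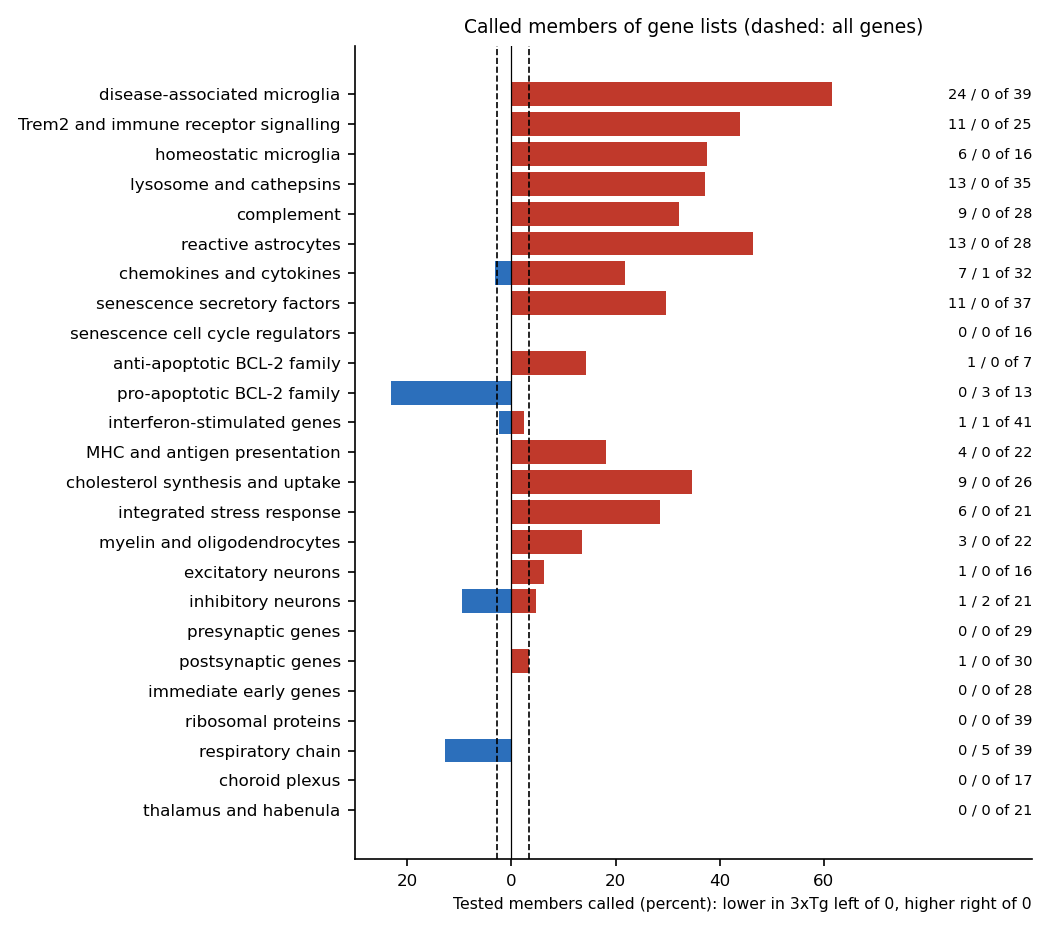
Share of the tested members of 25 gene lists that were called higher (red, to the right) or lower (blue, to the left) in 3xTg with navitoclax, in percent on the x axis, with the numbers higher, lower and tested at the right. Dashed lines are the shares over all genes, 3.29% higher and 2.69% lower; disease-associated microglia (24 of 39) and reactive astrocytes (13 of 28) reach furthest to the right.

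Other rises with a large size or a small p belonged to no list. Serpinf2, the inhibitor of plasmin, was at 2.91, 3.94, 5.81 and 2.62 CPM against 0.698, 0.480, 0.550 and 0.643 CPM (log2 2.69, edgeR adjusted p = 1.68e-06). Myoc, myocilin, was at 39 CPM in 3xTg replicate 1, the library with high thalamus markers, 8.59 to 14.6 CPM in the others and 2.36 to 6.66 CPM in WT (log2 2.05, adjusted p = 0.0143). Its call was lost without 3xTg replicate 1 (log2 1.42, adjusted p = 0.0764) and without WT replicate 3 (adjusted p = 0.0582). Aldh1l2, a mitochondrial folate enzyme, was at 16.1, 19.4, 18.5 and 17.4 CPM against 8.03, 8.10, 6.64 and 5.97 CPM (log2 1.31, SE 0.12, adjusted p = 8.16e-08). Sap130, a subunit of a histone deacetylase complex, was at 53.4 to 62.9 CPM against 38.2 to 41.1 CPM (log2 0.54, adjusted p = 7.3e-08), a small but even difference.

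Falls included immune and replication genes. Tagap, a GTPase activator of immune cells (chromosome 17, 7926000 to 7934897), was at 1.35, 2.02, 1.65 and 1.67 CPM in 3xTg and 11.2, 11.9, 12 and 10.8 CPM in WT (log2 -2.77, SE 0.19, edgeR adjusted p = 2.65e-10). Ccr6, a chemokine receptor that lies near it (chromosome 17, 8236043 to 8257141), had 0, 1, 0 and 0 counts in 3xTg and 115, 98, 80 and 93 counts in WT (adjusted p = 5.94e-09). Mcm6, a subunit of the replication helicase, was at 3.68, 3.94, 4.13 and 4.13 CPM against 11.8, 20.4, 19.7 and 17.8 CPM (log2 -2.13, adjusted p = 7.52e-08). Pcna, the replication clamp, was lower by 0.38 (adjusted p = 0.00231). The groups did not overlap for Tagap, Ccr6, Mcm6 or Pcna. Mcm6 and Pcna were the only calls among 22 proliferation and neurogenesis genes (9.09% lower, against 2.69% of all genes). That list did not fall as a whole: 12 members had a positive difference, with a median of 0.10. All 3xTg libraries lay above all WT libraries in 4 members (18.2%, against 6.96% of all genes) and below in 3 (7.6% of all genes).

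Other falls separated the WT libraries from each other. Gbp2b, an interferon-induced GTPase, had 0, 1, 0 and 0 counts in 3xTg and 185, 122, 2 and 323 in WT (edgeR adjusted p = 0.0124), so WT replicate 3 lay at the 3xTg level. Eno1b, an enolase gene with close copies, was at 0.409, 0.452, 0.520 and 0.692 CPM in 3xTg and 23.8, 11.3, 0.305 and 21.7 CPM in WT (log2 -4.77, adjusted p = 0.00114), with the same WT library at the bottom. Neither Gbp2b nor Eno1b passed with limma-voom (adjusted p = 0.161 and 0.184). Mettl24, a predicted methyltransferase, was at 0.550 to 1.19 CPM in 3xTg and 3.30, 3.21, 0.855 and 4.69 CPM in WT (log2 -1.90, adjusted p = 0.0194), again with replicate 3 lowest among WT. Its call was lost without 3xTg replicate 3 (adjusted p = 0.0778), without WT replicate 4 (0.0728) and with only the 8 libraries in the fit (0.0552). Tspan11, a tetraspanin, fell by 1.47 on the log2 scale (adjusted p = 0.0283), a call lost without any of 5 libraries (adjusted p up to 0.109, without 3xTg replicate 3). That call was also lost with only the 8 libraries in the fit (edgeR adjusted p = 0.0716).

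The remaining falls of the largest size and the smallest p included members of gene families with close copies, whose counts are uncertain because the treatment of ambiguous reads is not given. Ccl27a, a skin chemokine with duplicated copies, was at 0.997, 1.87, 2.45 and 0.739 CPM against 17.4, 14.2, 13.1 and 12.8 CPM (log2 -3.26, edgeR adjusted p = 7.37e-09). Pcdhga11, a clustered protocadherin that shares its constant exons with its neighbours, was at 5.08 to 6.31 CPM against 23 to 24.2 CPM (log2 -2.07, adjusted p = 4.98e-12), and Vmn2r29, a vomeronasal receptor gene, at 0.245 to 0.562 CPM against 2.79 to 3.26 CPM (log2 -2.84, adjusted p = 9.35e-07). The predicted genes Gm1976 (log2 -2.32, adjusted p = 6.95e-11), Gm10548 (log2 -4.66, adjusted p = 1.08e-09) and 1700034H15Rik (log2 -1.64, adjusted p = 0.000217) were lower without overlap.

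The share of called genes was also taken by position. Among 367 windows of 5000000 bases with at least 15 tested genes, the median share of called genes was 5.0% and the highest was 31.2%, 10 of 32 genes, on chromosome 17 from 5000001 to 10000000, the window that holds Tagap and Ccr6. Of these 10 genes 6 were also called between 3xTg and WT with vehicle and with DQ. The next window, on chromosome 4 from 140000001 to 145000000, had 12 of 40, of which 2 were called in all 3 comparisons. Both windows were singled out after their values were seen, and no test of their shares was made.

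Genotype differences with navitoclax were set beside those with vehicle (mean of VehN and VehD minus WT Veh) and with DQ, which use other libraries. With vehicle 2142 genes passed (13.1%) and with DQ 500 (3.05%). Of the 979 genes called with navitoclax 316 were called in the same direction with vehicle, 32.3% of these and 14.8% of the vehicle calls, and 3 in the opposite direction. With DQ 176 were shared, 18.0% and 35.2%, and 0 were opposite. Across the 979 genes 74.0% had the same sign with vehicle and 77.3% with DQ, where all genes had 43.2% and 42.1%.

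Some of the leading genes had similar differences in all 3 treatments and others varied between them. Cst7 differed by 4.24 with navitoclax, 3.91 with vehicle and 3.63 with DQ, and its 3xTg levels ran from 5.62 to 24.3, 6.72 to 11.4 (VehN and VehD) and 7.07 to 10.3 CPM. Clec7a differed by 2.59, 2.80 and 2.65, Tagap by -2.77, -2.59 and -2.21, and Mcm6 by -2.13, -2.05 and -1.77. Serpinf2 differed by 2.69, 1.84 and 1.22, Lilrb4 by 2.64, 2.06 and 1.18, Itgax by 2.38, 1.94 and 1.44, Myoc by 2.05, 2.30 and 0.78, and Tspan11 by -1.47, -0.78 and -2.90. None of these 9 genes passed the interaction of navitoclax with vehicle or DQ. Disease-associated microglia genes had 24 of 39 members higher with navitoclax, 20 with vehicle and 12 with DQ, with medians of 0.80, 0.37 and 0.40, where 5.68% of all genes were higher and 7.4% lower with vehicle, and 1.68% higher and 1.37% lower with DQ. Reactive astrocyte genes had 13, 13 and 8 of 28 higher, with medians of 0.93, 0.56 and 0.33. Interferon-stimulated genes went the other way in number: 1 of 41 was higher with navitoclax, 16 with vehicle and 7 with DQ, with medians of 0.32, 0.52 and 0.53. Counts of calls in comparisons of different spread are not a test of a difference.

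**Figure D4:**
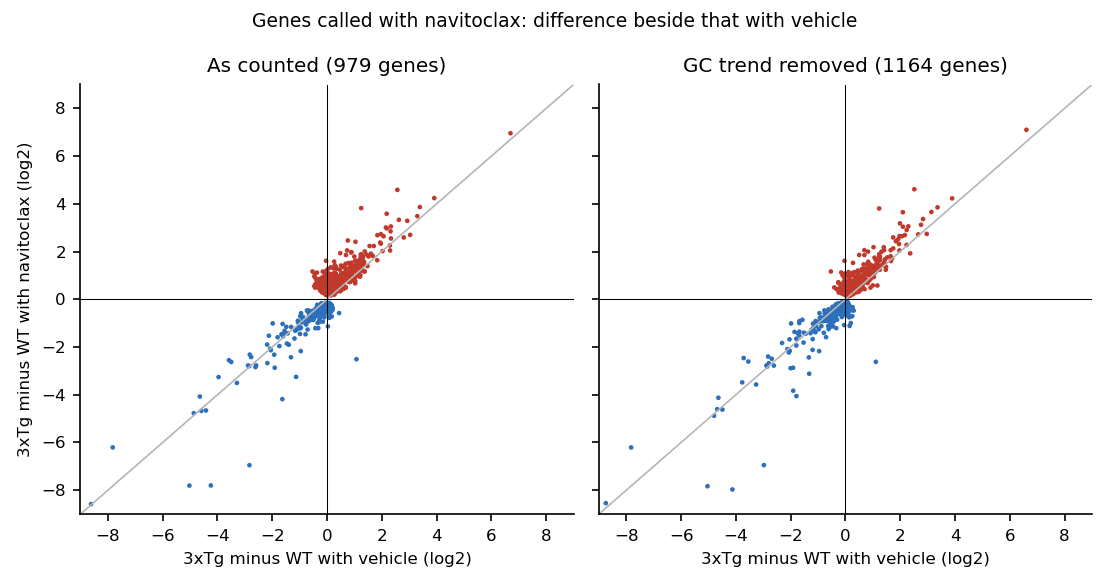
For the genes called with navitoclax, the difference of 3xTg minus WT with navitoclax (y axis, log2) is plotted against that with vehicle (x axis, log2), as counted (left, 979 genes) and after removal of each library's GC trend (right, 1164 genes); red genes are higher and blue genes lower, and the grey line marks equal differences. Large differences such as that of Cst7 (4.24 with navitoclax, 3.91 with vehicle) lie near the line in both panels. Ccr6 lies off it in both (-7.81 with navitoclax, -5.02 with vehicle, as counted). Of the 979 genes 316 were also called in the same direction with vehicle.

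Base composition moved with the genotype difference, and the direction was not the same across treatments. Across 15590 genes with a known GC content, the log2 difference with navitoclax had a Spearman correlation with GC content of 0.485, against -0.505 with vehicle and -0.395 with DQ; genes share libraries and depth, so no p is given. Genes called higher with navitoclax had a median GC content of 53.2% and those called lower 46.9%, against 49.7% over all genes. The slope of a library's levels on GC content (log2 per 10 points) was 0.071, -0.051, 0.26 and 0.28 in 3xTg replicates 1 to 4 and 0.020, -0.029, -0.18 and -0.062 in WT. 3xTg replicates 3 and 4 and WT replicate 3 had the steepest slopes of the 8. After removal of the trend the correlation was -0.002 and 1164 genes passed, 494 higher and 670 lower, so the split between directions turned. Of the 39 disease-associated microglia genes the same 24 were higher both ways, with a median of 0.61 after removal, and of the 28 reactive astrocyte genes the same 13, with a median of 0.93. Shared calls with vehicle were 418 after removal, and 84.5% of the genes called then had the same sign with vehicle. Whether the trend comes from the samples or the libraries was not tested.

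**Figure D5:**
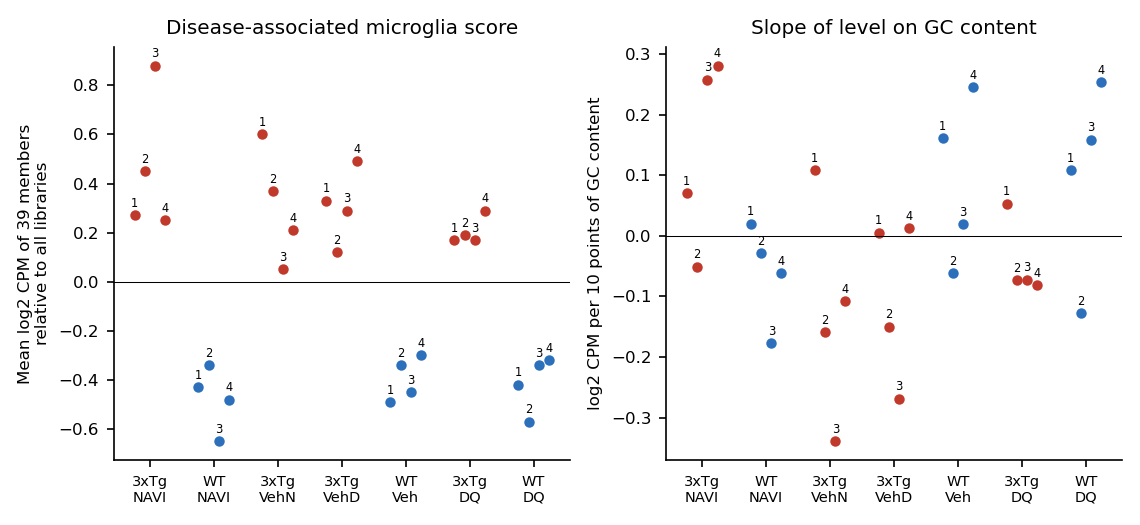
Left, the mean log2 CPM of 39 disease-associated microglia genes relative to all libraries, and right, the slope of level on GC content (log2 CPM per 10 points), for each of 28 libraries (points, with replicate number) in 7 groups; 3xTg groups are red and WT groups blue. All 16 3xTg libraries lie above all 12 WT libraries on the left, with 3xTg NAVI replicate 3 highest at 0.88, while slopes on the right vary within groups.

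Whether the genotype difference itself depended on the drug was tested by interaction. Against vehicle, 1743 genes passed (10.6%), 1122 with a higher difference under navitoclax (6.85%) and 621 with a lower one (3.79%), 34.3% had an unadjusted p under 0.05, and the smallest adjusted p was 0.0388. With the GC trend removed 0 passed with edgeR (2560 had an unadjusted p under 0.05, and DESeq2 without that removal called 3225). The count was also 0 with VehD alone as the 3xTg vehicle and 1331 with VehN alone. It was 0 without any 1 of 9 libraries (NAVI replicates 3 and 4, VehN replicates 2 and 3 and VehD replicate 3 in 3xTg, NAVI replicates 2, 3 and 4 and Veh replicate 1 in WT), 1 without 3xTg VehD replicate 2 or WT Veh replicate 4, and 4083, 4061 and 3290 without 3xTg NAVI replicate 2, 3xTg VehN replicate 1 and WT Veh replicate 2. Of the 641 genes called with navitoclax and with neither vehicle nor DQ, 218 passed this interaction, and none of 710 such genes did once the trend was removed.

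Among the lists, ribosomal protein genes had 18 of 39 members with a higher difference under navitoclax (46.2%, against 6.85% of all genes), postsynaptic genes 13 of 30 (43.3%) and excitatory neuron genes 5 of 16 (31.2%). In the same order, 0, 1 and 1 members were higher in 3xTg with navitoclax and 0 lower. With vehicle 17, 11 and 4 were lower (7.4% of all genes) and 1, 0 and 0 higher. Medians were 0.09, 0.06 and 0.12 with navitoclax and -0.24, -0.25 and -0.28 with vehicle. Cholesterol genes had 6 of 26 (23.1%) with a higher difference and 1 with a lower one (3.85%, against 3.79% of all genes). Stress response genes had 4 of 21 (19.0%). Between genotypes, 10 of the 26 cholesterol genes were higher with vehicle and 4 with DQ (5.68% and 1.68% of all genes). Their medians were 0.16 and 0.20, against 0.27 with navitoclax. No stress response gene passed with vehicle or DQ (medians 0.004 and 0.075). With the GC trend removed no gene of any list passed the interaction with edgeR. Chac1 differed by 0.96 with navitoclax and -0.46 with vehicle, an interaction of 1.42 (edgeR adjusted p = 0.0388), and its levels were 3.64 to 7.04 CPM in 3xTg NAVI, 2.42 to 3.30 CPM in WT NAVI, 3.21 to 4.83 CPM in 3xTg with vehicle and 3.19 to 8.02 CPM in WT with vehicle. The lower WT level with navitoclax and the wide WT vehicle group thus both enter that value. With the trend removed it was 0.97 (adjusted p = 0.0933). For Atf5 the interaction was 0.74, for Slc7a5 0.45 and for Mvk 0.73 (adjusted p 0.0388 to 0.0407), and with the trend removed 0.17, 0.09 and 0.38 (adjusted p 0.201 to 0.76). The 5 genes with the smallest p were Dlk2, a Notch ligand homologue (1.20), the mitotic kinase Wee1 (-0.58), the valine catabolic enzyme Hibadh (-0.41), the nuclear receptor co-regulator Pelp1 (0.50) and the neuronal membrane protein Pianp (0.52). Wee1 was at 22.3 to 24.6 CPM in 3xTg NAVI and 30.9 to 33.4 CPM in WT NAVI (log2 -0.45, adjusted p = 0.00178), while Pianp groups overlapped with navitoclax. Apoe differed by 0.79 with navitoclax, 0.14 with vehicle and 0.03 with DQ, but its interaction against vehicle did not pass (0.64, adjusted p = 0.0624).

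Against DQ, 2 genes passed (0.0122%), and both turned on the DQ libraries. Cthrc1, a collagen repeat protein, was at 4.56 to 5.67 CPM in 3xTg NAVI and 3.28 to 5.52 CPM in WT NAVI, overlapping, and at 4.21 to 5.45 CPM in 3xTg DQ but 0.673 to 0.831 CPM in WT DQ (interaction -2.53, edgeR adjusted p = 0.000347). Mtmr12, a myotubularin-related protein, had an interaction of -0.54 (adjusted p = 0.0111). DESeq2 called 67 genes, and 4232 had an unadjusted p under 0.05 with edgeR.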

How the data were processed

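Messenger RNA was sequenced from 28 hippocampus libraries with a stranded kit and paired reads of 100 bases, per the labels' protocols. The authors deposited a table of raw counts per gene. STAR, Subread and featureCounts and the build mm10 are named in the submitters' processing notes, while the gene annotation, the strand setting and all versions were not given in the sources used here. All 28 count columns matched a library by name and 0 were unused. The members and the 43 gene lists were chosen with earlier results of these data known, and some items are not reported here.

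Genes were kept by filterByExpr of edgeR 4.0.16 (R 4.3.3), which left 16369 of 24062 and removed 7693. The test was edgeR's quasi-likelihood test with TMM scaling over all 7 groups, two-sided, with Benjamini-Hochberg adjustment over all genes tested and a call at an adjusted p under 0.05. Log2 differences are 3xTg minus WT as given by edgeR's fit at its default prior count. A prior count of 2 was used for the log2 CPM of libraries, not for these differences. The SE was taken from the test's F value, 95% intervals use a t quantile with 21 degrees of freedom, and CPM use TMM factors. The GC trend was removed by a spline of GC content (5 degrees of freedom) in each library. A list score is the mean over members of log2 CPM centred over all 28 libraries. Genes named are the 12 largest rises and 12 largest falls with an average log2 CPM of at least 0, the 5 smallest p in each direction, up to 4 members with the smallest p of each described list, the 5 smallest p of each interaction, and a fixed set of transgene, microglial, senescence and BCL-2 genes. Alternatives included other scalings and filters, DESeq2 1.42.0, limma-voom 3.58.1, a surrogate variable (sva 3.50.0), tissue scores as covariates, a replicate block and each library left out. Leaving out the libraries of all groups with a choroid plexus score above 0 was chosen after seeing the data. On simulated data of 16369 genes the test recovered 30% of changes of 1.25-fold, 76% of 1.5-fold, 98% of 2-fold and 100% of 4-fold, and 7.88% of its calls were false. Each fold was placed in 50 genes above a minimum level, so recovery for genes with few counts is not covered. Counts were drawn independently, without the GC trends or tissue differences of the real libraries, so these rates need not hold for them. No 2 libraries of a group agreed within sampling noise (lowest chi-square per degree of freedom 12.26).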

Additional observations from a re-analysis of the deposited data

Results flagged for a closer look

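Of 248 groups of 4 libraries checked, 13 had 1 library far from the other 3 by Dixon's test, and chance gives about 1 in 20. WT replicate 3 was low for Mapt (547 CPM, others 602 to 612) and Bcl2l2 (200.2 CPM, others 204 to 205). WT replicate 2 was high for Itgax (1.79 CPM, others 1.06 to 1.17). 3xTg replicate 3 was high for Cd68 (24.5 CPM, others 12.8 to 14.7) and Mmp12 (2.23 CPM, others 0.434 to 0.625), and 3xTg replicate 2 held the 1 count of Gbp2b and of Ccr6 (0.0215 CPM each, others 0). Among list scores, WT replicate 1 was low for antigen presentation (-0.55, others -0.19 to -0.13) and for secretory factors (-0.48, others -0.30 to -0.27). WT replicate 2 was high for choroid plexus (1.64, others -1.62 to -1.26) and 3xTg replicate 1 for thalamus and habenula (1.35, others -0.69 to -0.47). 3xTg replicate 4 was high for CA1 to CA3 (0.09, others 0.02 to 0.03) and 3xTg replicate 2 for proliferation and neurogenesis (0.11, others -0.06 to -0.04).

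For some genes the genotype difference itself differed between treatments by the edgeR interaction test. Against vehicle the difference of differences (log2) was 0.78 for Cd68, 0.55 for Laptm5, 1.09 for Aspg, 1.42 for Chac1, 0.74 for Atf5, 0.27 for Slc3a2 and 0.45 for Slc7a5. It was 0.30 for Dhcr7, 0.73 for Mvk, 0.96 for Mt2, -0.33 for Gad1, 0.77 for Grin2b, -0.42 for Bnip3 and 0.27 for Ncstn. It was 1.20 for Dlk2, -0.58 for Wee1, -0.41 for Hibadh, 0.50 for Pelp1, 0.52 for Pianp and -0.95 for Cthrc1. Adjusted p ran from 0.0388 to 0.0497 in these 20 genes, and from 0.0933 to 0.766 with the GC trend removed. The values themselves then stayed near their size for Wee1 (-0.57), Grin2b (0.93) and Cthrc1 (-0.82) and were far smaller for Pianp (0.07), Pelp1 (0.10), Slc7a5 (0.09) and Atf5 (0.17). Against DQ it was -2.53 for Cthrc1 (adjusted p = 0.000347; 0.0011 with the trend removed) and -0.54 for Mtmr12 (adjusted p = 0.0111; 0.0266 with the trend removed).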

How the results depend on the processing

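Of 979 calls with navitoclax, other settings gave 1641 (DESeq2), 1603 (limma-voom), 953 (tissue scores) and 535 (only the 8 libraries). The number was 102 without the libraries high in choroid plexus markers, and leaving out 1 library gave 375 to 1920. With vehicle, leave-outs moved 2142 to between 873 and 3482. With DQ, 500 became 252 with tissue scores and 1545 with limma-voom, and leave-outs gave 263 to 632. The interaction against vehicle (1743) gave 3255 with 1 surrogate variable, 0 with VehD alone (4916 at an unadjusted p under 0.05 with edgeR), 3225 with DESeq2, 0 with the GC trend removed, 2940 with tissue scores and 749 with no filter, and leave-outs gave 0 to 4083. The interaction against DQ (2) gave 67 with DESeq2, 4 with the GC trend removed, 1 with tissue scores and 1861 with limma-voom, and leave-outs gave 1 to 55. The cause of these moves was not tested. Directions turned for Cdkn1a (-0.07 with the GC trend removed, -0.06 without 3xTg replicate 2, -0.02 and -0.04 without WT replicates 2 and 4), Bcl2l1 (-0.05) and Pianp (-0.11) with the trend removed, and Cthrc1 without WT replicate 3 (0.00), none of which passed. Leave-outs ranged from -0.06 to 0.22 for Cdkn1a and from 0.00 to 0.23 for Cthrc1. Of the gene values under other settings 1672 kept their direction and side of the threshold, 81 lost a call, 8 gained one and 10 turned, and 37 of the lost calls came without the libraries high in choroid plexus markers.

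Replicate numbers were not taken as pairs: the deviations of same-numbered navitoclax libraries correlated at -0.1731, -0.2845, -0.235 and 0.2199, and 1 of 4 correlated best with its own number. Over all 7 groups, however, the slope on GC content was positive in 7 of 7 libraries numbered 1 and negative in 7 of 7 numbered 2, and what the numbers stand for is not given. With the replicate block 1884 genes passed with navitoclax, 3283 with vehicle, 3715 in the interaction against vehicle and 5 in that against DQ. With the block and the GC trend removed the numbers were 1542 with navitoclax, 272 and 5 in the interactions, and the values of Cdkn1a, Bcl2l1 and Pianp were -0.06, -0.05 and -0.11. Depth limits genes with few counts, such as Cdkn2a, Cd3g and Cd8a.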
